A study of Mus musculus with 4 samples.

Results

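The genes examined here encode the RNA polymerase II (Pol II) machinery itself: polymerase subunits, general initiation factors, Mediator, Integrator, and the factors that pause, release and accompany the elongating enzyme. They were picked out by gene symbol, with a fixed pattern of names that uses no measured value. The pattern was set with earlier results of these data known. The pattern found 53 genes among the 3117 genes listed in either table, and all 53 stood in both the table of transcription start sites (TSS) and that of transcription end sites (TES). In the GENCODE M21 annotation the same pattern matches 148 protein-coding genes. The 5 genes of the PAF1 complex and the 6 of the Mediator kinase module are among those not analysed here.

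The samples were 4 libraries of mammalian native elongating transcript sequencing (mNET-seq), a method that recovers the short nascent RNA held by immunoprecipitated Pol II after nuclease digestion of chromatin. Carm1 KO cells, which lack the arginine methyltransferase Carm1, gave 1 library with an antibody to the Pol II carboxy-terminal domain phosphorylated on serine 2 (Ser2P) and 1 with the antibody 8WG16 to the domain itself, and control cells gave the same pair. Both kinds of cells were B16F10, an established mouse melanoma line. The control genotype is labelled WT. How the knockout was made and whether it is a single clone is not given in the labels. Of 10 melanocyte markers looked for, 6 (Sox10, Tyr, Tyrp1, Pmel, Mlana and Mc1r) were listed, against 0 of 5 fibroblast and 0 of 5 leukocyte markers. A listing is not a level, since how the authors chose genes is not given. The material of 3 sets of cells was pooled for each condition, so each value below comes from 1 pooled library per group and no difference has a replicate check. In bulk libraries fewer cells carrying a signal and less signal per cell cannot be told apart.

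For each gene the deposited tables give a Ser2P ratio in Carm1 KO and in control cells. The ratio has no unit, its divisor is not named and read depth is unknown. Changes are log2(Carm1 KO / control) of this ratio, so a positive change means higher in Carm1 KO cells, and a gene is called higher or lower from 1.5-fold (0.58 on the log2 scale). Most genes of either table were higher in Carm1 KO cells. The median change over all genes was 1.17 for starts and 0.85 for ends, and the scaling between libraries is not given, so its part in this rise was not tested. The direction of a group is therefore also given relative to those medians.

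As background, Pol II carries a long tail of repeated heptapeptides whose serines are phosphorylated and dephosphorylated as transcription proceeds. After initiation with the general factors and Mediator, the polymerase pauses near the start under DSIF and NELF. P-TEFb, the kinase Cdk9 with cyclin T, releases it and adds serine 2 phosphate, joined further along the gene by Cdk12 and Cdk13, so that the mark is usually low at starts and high at ends. The 7SK particle, with Hexim and Larp7 proteins, holds P-TEFb inactive, Integrator ends transcription of many paused polymerases, and phosphatases such as Ctdp1 reset the tail. The genes of these factors are themselves read by Pol II, and it is the mark at their own starts and ends that is described here.

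At gene starts the shares of machinery genes that changed lay near those of the whole table. Of the 46 genes above 0 in both conditions, 31 (67.4%) were higher in Carm1 KO cells by 1.5-fold or more, against 71.2% of all genes, and 0 were lower, against 5.6% of all genes. The count of 0 depends on leaving out genes listed at 0, since with a pseudocount of 0.01 and those genes kept 6 (11.3%) were lower, against 9.06% of all genes. Their median change was 1.00, with quartiles at 0.38 and 1.90. The median ratio was 0.168 in Carm1 KO and 0.0719 in control cells, beside 0.166 in Carm1 KO and 0.0809 in control cells over all listed genes. Relative to the median change of all genes 14 were higher (30.4%, all genes 28.6%) and 15 lower (32.6%, all genes 28.8%). A further 6 genes (11.3%) were listed at 0 in Carm1 KO cells, against 6.23% of all genes, and 1, Supt3, at 0 in control cells, against 3.25%. No fold was computed for these 7.

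At gene ends fewer of them were higher. Of 53 genes 29 (54.7%) were called higher in Carm1 KO cells, against 66.7% of all genes, and 6 (11.3%) were lower, against 7.13%. The median change was 0.71, with quartiles at -0.06 and 1.16. The median ratio was 3.47 in Carm1 KO and 2.83 in control cells, beside 2.99 in Carm1 KO and 1.71 in control cells over all listed genes. Relative to the median of all genes 7 were higher (13.2%, all genes 11.6%) and 19 lower (35.8%, all genes 22.0%). The 6 lower genes were Ccnt2, Taf4b, Taf8, Gtf2e1, Ctdp1 and Med6. In 5 of them the Carm1 KO or the control ratio was exactly that of another gene in the table, and Ccnt2 was the 1 lower gene left once all such genes were set aside. No difference between these shares and those of all genes was tested. Spearman's rho between the control TES ratio and the TES change was -0.53 for the 53 genes and -0.44 over all genes. The control ratio is the divisor of that change, and its part in these shares was not tested.

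**Figure D1:**
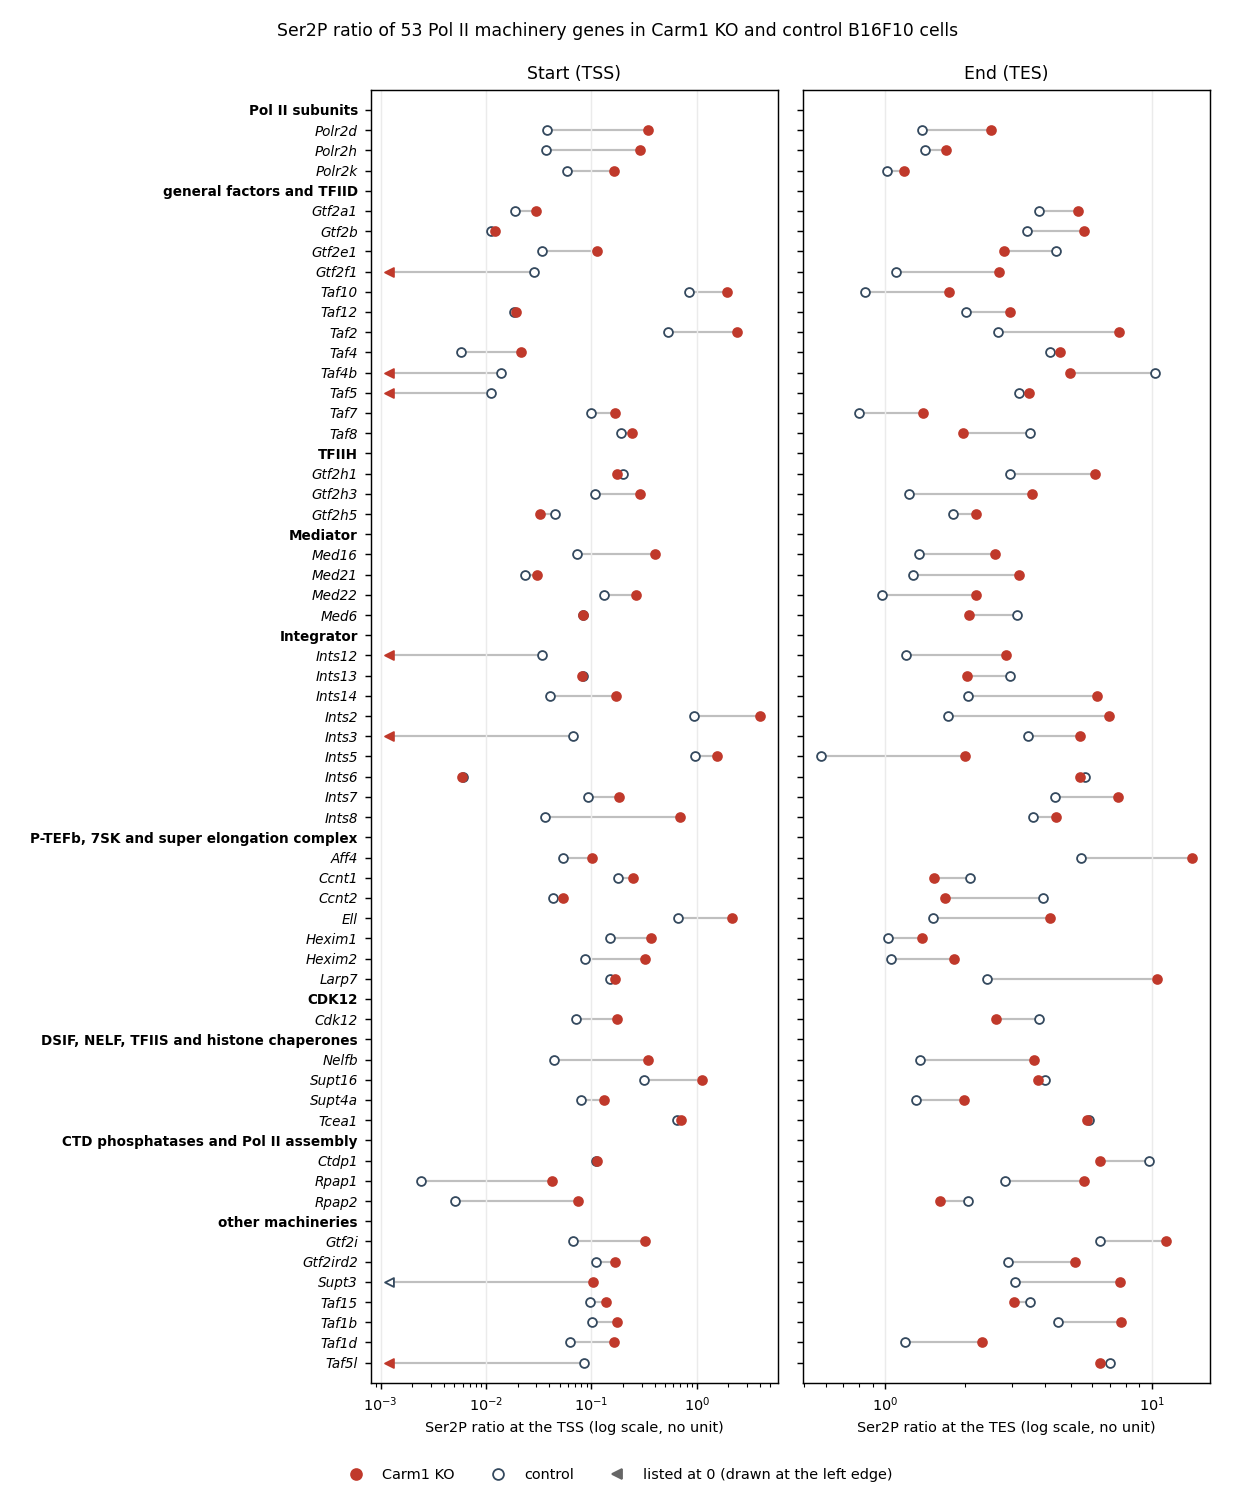
Ser2P ratio (log axis, no unit) of the 53 genes at the TSS (left) and the TES (right), grouped by complex, with filled points for Carm1 KO, open points for control and triangles at the left edge for a ratio listed at 0. TSS ratios run up to 3.95 at Ints2 and TES ratios up to 14.1 at Aff4, both in Carm1 KO cells, and 6 red triangles mark the genes at 0 in Carm1 KO cells at the TSS.

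Promoters were taken from genes with large TSS increases in Carm1 KO cells and from genes listed at 0 there. Start windows are shown for 6 of these promoters, with the matched letters in capitals. Each runs from 250 bases before the start through the first 50 of the gene, 5′ to 3′ on the gene's strand, from RefSeq on GRCm38.p6. Rpap1 (chr2:119787488-119787787, minus strand), Rpap2 (chr5:107597123-107597422, plus strand) and Nelfb (chr2:25211440-25211739, minus strand) had among the largest TSS increases in Carm1 KO cells. Gtf2f1 (chr17:57011239-57011538, minus strand), Taf5 (chr19:47067498-47067797, plus strand) and Ints12 (chr3:133091605-133091904, plus strand) were listed at 0 there. Capitals mark the TATA box letters TATAAA, the GC box letters GGGCGG, the CCAAT box, the ETS letters CCGGAAG, the E box letters CACGTG and the YY1 letters AAGATGGCG, each on either strand.
Rpap1: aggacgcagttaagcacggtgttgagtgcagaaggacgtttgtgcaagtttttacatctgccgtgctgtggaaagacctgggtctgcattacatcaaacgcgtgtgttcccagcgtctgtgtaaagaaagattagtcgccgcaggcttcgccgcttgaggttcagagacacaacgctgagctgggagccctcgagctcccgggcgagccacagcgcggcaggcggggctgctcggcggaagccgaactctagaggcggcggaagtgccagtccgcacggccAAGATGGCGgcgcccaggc
Rpap2: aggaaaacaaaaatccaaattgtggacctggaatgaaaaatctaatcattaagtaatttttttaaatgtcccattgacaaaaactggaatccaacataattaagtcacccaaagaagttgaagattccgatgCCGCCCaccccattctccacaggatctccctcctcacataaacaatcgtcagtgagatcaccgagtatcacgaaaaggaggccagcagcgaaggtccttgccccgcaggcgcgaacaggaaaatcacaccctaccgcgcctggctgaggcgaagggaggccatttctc
Nelfb: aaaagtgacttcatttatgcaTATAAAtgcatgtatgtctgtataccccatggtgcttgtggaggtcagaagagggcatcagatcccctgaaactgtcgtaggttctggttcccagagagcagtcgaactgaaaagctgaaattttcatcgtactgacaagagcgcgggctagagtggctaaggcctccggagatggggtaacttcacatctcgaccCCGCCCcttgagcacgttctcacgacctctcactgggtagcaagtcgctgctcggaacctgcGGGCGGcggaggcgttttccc
Gtf2f1: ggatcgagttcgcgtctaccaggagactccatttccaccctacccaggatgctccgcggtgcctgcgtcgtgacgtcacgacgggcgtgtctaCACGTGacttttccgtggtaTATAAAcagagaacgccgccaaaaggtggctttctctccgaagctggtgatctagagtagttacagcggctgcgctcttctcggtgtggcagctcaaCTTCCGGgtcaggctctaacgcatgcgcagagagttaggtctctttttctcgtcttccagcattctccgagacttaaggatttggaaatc
Taf5: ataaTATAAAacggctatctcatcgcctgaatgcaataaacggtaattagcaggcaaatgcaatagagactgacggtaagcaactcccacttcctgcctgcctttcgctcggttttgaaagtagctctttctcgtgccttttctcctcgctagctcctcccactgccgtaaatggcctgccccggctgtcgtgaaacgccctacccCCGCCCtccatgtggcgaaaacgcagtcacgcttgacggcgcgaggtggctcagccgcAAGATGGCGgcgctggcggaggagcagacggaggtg
Ints12: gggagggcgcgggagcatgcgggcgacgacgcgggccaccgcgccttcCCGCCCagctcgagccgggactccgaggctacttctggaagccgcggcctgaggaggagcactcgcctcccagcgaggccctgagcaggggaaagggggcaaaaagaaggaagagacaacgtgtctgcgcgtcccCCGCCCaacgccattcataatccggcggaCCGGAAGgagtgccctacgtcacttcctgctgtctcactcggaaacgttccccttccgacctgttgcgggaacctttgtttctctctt

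The YY1 letters AAGATGGCG stood just inside Rpap1, with a large TSS increase, and just inside Taf5, listed at 0 in Carm1 KO cells, and TATAAA stood well upstream of the start in Nelfb as in Gtf2f1 and Taf5. RefSeq promoters were matched for 43 of the 53 genes. Their median GC content was 64.7% with 28 CpG dinucleotides, beside 61.7% and 24 in the 2436 matched genes of both tables and 55% and 11 in all 20595 promoters. AAGATGGCG was present in 6 of the 43 (14.0%), against 5.67% of the genes of both tables and 1.79% of all promoters, and CACGTG in 10 (23.3%), against 13.3% and 7.66%. GGGCGG was in 74.4%, against 69.7% and 42.7%. For CCAAT the shares were 34.9%, 41.7% and 38.2% in the same order of sets, and for TATAAA 9.30%, 6.08% and 13.2%. The ETS letters were in 25.6%, against 26.7% of the genes of both tables. Matches are letters in a window, counted wherever they overlap, and were not tested as sites.

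Among polymerase subunits 3 of 13 matching genes were listed, and all 3 were higher at the TSS in Carm1 KO cells by more than the median gene. Polr2d, which encodes a subunit of the stalk, had a TSS ratio of 0.346 in Carm1 KO and 0.0381 in control cells (log2 change 3.19). Polr2h, a subunit shared by the nuclear polymerases, had 0.288 in Carm1 KO and 0.0373 in control cells (2.95). Polr2k, a small zinc-binding subunit shared in the same way, had 0.163 in Carm1 KO and 0.0589 in control cells (1.46). Each of these 3 changes rests on a ratio that was exactly that of another gene. The control ratio of Polr2d was common to 5 genes and the Carm1 KO ratio of Polr2k to 3. For Polr2h the Carm1 KO ratio was common to 10 genes and the control ratio to 2. At the TES the same genes stood below the length-matched median of all genes. Relative to the plain median of all genes, the reference used for their starts, Polr2d lay at 0.013, Polr2h at -0.59 and Polr2k at -0.64. Polr2d had 2.51 in Carm1 KO and 1.38 in control cells (0.86), Polr2h 1.69 in Carm1 KO and 1.42 in control cells (0.26) and Polr2k 1.18 in Carm1 KO and 1.02 in control cells (0.21). The start of Polr2h lies inside the divergent gene Clcn2, whose part in its TSS ratio was not tested.

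General initiation factors and TFIID, the complex that recognises core promoters, gave 12 listed genes of 26 matching the pattern. At the TSS 6 of the 9 comparable ones (66.7%, all genes 71.2%) were higher in Carm1 KO cells. The median was 0.76, or -0.40 relative to the median of all genes. Without ratios shared with another gene the median was 1.91 over 3 genes, and no median of all genes is given for that setting. The largest change was at Taf2, the TFIID subunit that contacts initiator DNA, with 2.38 in Carm1 KO and 0.535 in control cells (2.16). Taf4, a TFIID scaffold, had 0.0216 in Carm1 KO and 0.00578 in control cells (1.91), both among the low TSS ratios of these genes. Gtf2e1, the large subunit of TFIIE, had 0.112 in Carm1 KO and 0.0343 in control cells (1.71). Both Taf10, with 1.92 in Carm1 KO and 0.838 in control cells (1.19), and Taf7, with 0.168 in Carm1 KO and 0.0989 in control cells (0.76), are short genes. Gtf2a1 of TFIIA had 0.0298 in Carm1 KO and 0.0187 in control cells (0.67). The others stayed under 1.5-fold. Taf8, a partner of Taf10, had 0.245 in Carm1 KO and 0.190 in control cells (0.37), Gtf2b, which encodes TFIIB, 0.0121 in Carm1 KO and 0.0111 in control cells (0.13), and Taf12 0.0194 in Carm1 KO and 0.0186 in control cells (0.06). The remaining 3 were listed at 0 in Carm1 KO cells: Gtf2f1, the large subunit of TFIIF, against 0.0286 in control cells, Taf4b against 0.0139 and Taf5 against 0.0111.

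At the TES 5 of these 12 (41.7%, all genes 66.7%) were higher and 3 (25%, all genes 7.13%) lower in Carm1 KO cells. The higher ones were Taf2, with 7.57 in Carm1 KO and 2.67 in control cells (1.51), Gtf2f1, with 2.68 in Carm1 KO and 1.10 in control cells (1.28), Taf10, with 1.74 in Carm1 KO and 0.842 in control cells (1.05), Taf7, with 1.39 in Carm1 KO and 0.802 in control cells (0.79), and Gtf2b, with 5.56 in Carm1 KO and 3.41 in control cells (0.71). Gtf2f1 was thus listed at 0 at its start and was higher at its end. The lower ones were Taf4b, a paralogue of Taf4, with 4.92 in Carm1 KO and 10.3 in control cells (-1.06), Taf8, with 1.96 in Carm1 KO and 3.50 in control cells (-0.83), and Gtf2e1, with 2.79 in Carm1 KO and 4.37 in control cells (-0.65). Gtf2e1 was the 1 gene of the 53 called in opposite directions, higher at its start and lower at its end. Its start ratios were shared, the Carm1 KO one common to 17 genes and the control one to 6. The others lay between, at 0.56 for Taf12, 0.49 for Gtf2a1, 0.13 for Taf4 and 0.12 for Taf5.

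TFIIH, which opens promoter DNA and holds the initiation kinase, gave 3 core subunits, and the kinase genes themselves were not analysed here. Gtf2h3 had a TSS ratio of 0.288 in Carm1 KO and 0.108 in control cells (1.42), and a TES ratio of 3.56 in Carm1 KO and 1.23 in control cells (1.53). Gtf2h1 had 0.176 in Carm1 KO and 0.199 in control cells at the TSS (-0.18), but 6.15 in Carm1 KO and 2.95 in control cells at the TES (1.06). Gtf2h5, the smallest subunit, had the lowest TSS change of all comparable members, with 0.0327 in Carm1 KO and 0.0449 in control cells (-0.45), and 2.20 in Carm1 KO and 1.80 in control cells at the TES (0.28). In this complex 1 of 3 genes was called higher at the TSS (33.3%, all genes 71.2%) and 2 at the TES (66.7%, all genes 66.7%). All 3 start within 1 kb of a divergent gene (Hps5, Eif2b1 and Serac1), as do 39.0% of all annotated TSS genes.

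Mediator, the bridge between activators and Pol II, was represented by 4 of 26 core genes. Med16, of the tail, had 0.403 in Carm1 KO and 0.0738 in control cells at the TSS (2.45), and 2.58 in Carm1 KO and 1.34 in control cells at the TES (0.95). Med22, of the head, had 0.266 in Carm1 KO and 0.131 in control cells at the TSS (1.02), then 2.19 in Carm1 KO and 0.978 in control cells at the TES (1.16). Med21, of the middle, had 0.0306 in Carm1 KO and 0.0233 in control cells at the TSS (0.40), then 3.18 in Carm1 KO and 1.27 in control cells at the TES (1.32). Med6, also of the head, stood apart from the other 3, with 0.0826 in Carm1 KO and 0.0834 in control cells at the TSS (-0.01), and 2.06 in Carm1 KO and 3.12 in control cells at the TES (-0.60).

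Integrator cleaves nascent RNA, and 9 of its 15 matching genes were listed. At the TSS 5 of 7 comparable genes (71.4%) were higher in Carm1 KO cells, close to the 71.2% of all genes. A further 2 of the 9 (22.2%) were listed at 0 there, against 6.23% of all genes. Ints8, which links the complex to its phosphatase, showed the largest TSS change of all the machinery genes, with 0.687 in Carm1 KO and 0.0362 in control cells (4.25). Ints14 had 0.170 in Carm1 KO and 0.0405 in control cells (2.07). Ints2, with 3.95 in Carm1 KO and 0.951 in control cells (2.06), had the highest TSS ratio of the 53 genes in Carm1 KO cells. Ints5, with 1.54 in Carm1 KO and 0.960 in control cells (0.68), had the highest in control cells. Ints7 had 0.183 in Carm1 KO and 0.0935 in control cells (0.97). Against these, Ints6 had 0.00597 in Carm1 KO and 0.00600 in control cells (-0.01) and Ints13 0.0813 in Carm1 KO and 0.0838 in control cells (-0.04), both within 1.5-fold. Ints3, which also serves in a single-stranded DNA binding complex, was listed at 0 in Carm1 KO cells against 0.0668 in control cells, and Ints12 at 0 against 0.0343.

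At the TES 6 of 9 Integrator genes (66.7%) were higher in Carm1 KO cells, the same share as the 66.7% of all genes, and 0 were lower, against 7.13% of all genes. Ints2 had 6.89 in Carm1 KO and 1.73 in control cells (1.997), Ints5 1.99 in Carm1 KO and 0.577 in control cells (1.79), Ints14 6.24 in Carm1 KO and 2.04 in control cells (1.61) and Ints12 2.84 in Carm1 KO and 1.21 in control cells (1.24). Ints7, with 7.45 in Carm1 KO and 4.34 in control cells (0.78), and Ints3, with 5.41 in Carm1 KO and 3.44 in control cells (0.65), completed the 6. Ints8 had only 4.38 in Carm1 KO and 3.60 in control cells at the TES (0.29), in contrast to its start. Ints6, with 5.37 in Carm1 KO and 5.62 in control cells (-0.06), and Ints13, with 2.03 in Carm1 KO and 2.94 in control cells (-0.53), were not called. Relative to the median of all genes 4 of the 9 lay above and 5 below. Relative to all genes of like length, 7 of the 9 lay above the median, of which Ints6 (0.025) and Ints8 (0.061) were close to it, and 2 below.

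**Figure D2:**
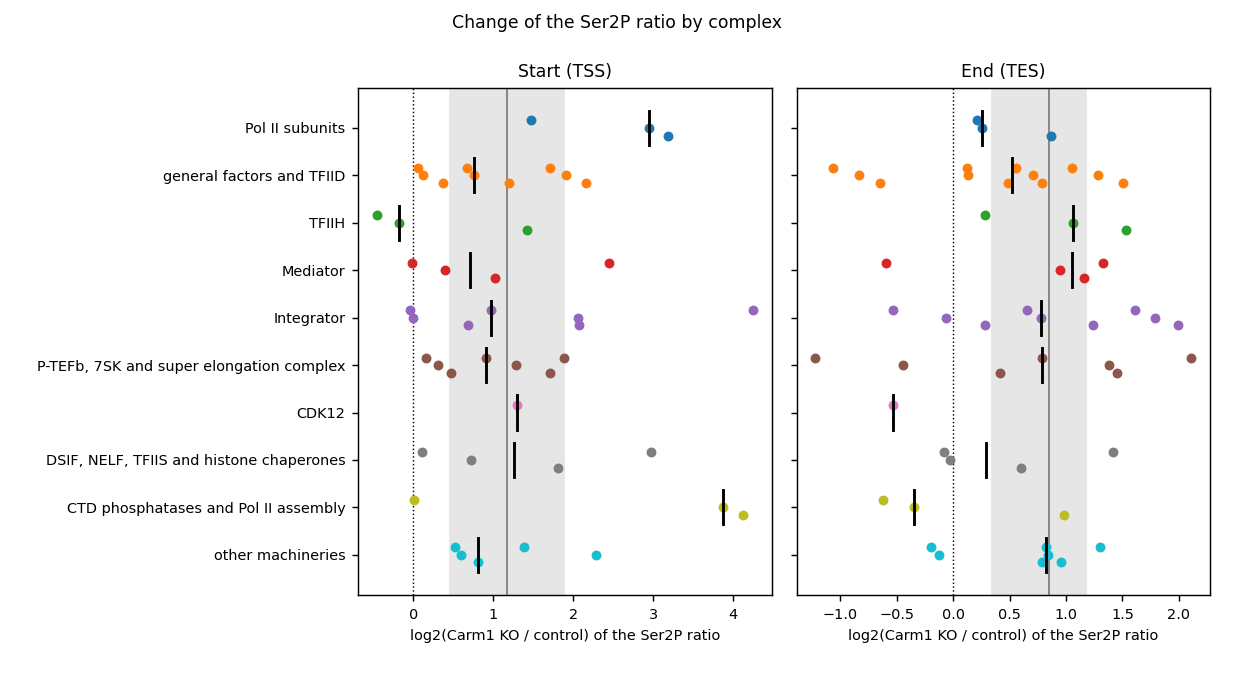
log2(Carm1 KO / control) of the Ser2P ratio for each gene (points) by complex at the TSS and the TES, with a black bar at each complex median, a grey line at the median of all genes and a grey band between their quartiles. At the TSS all 46 points lie at or above -0.45, whereas at the TES points of 8 groups reach below 0, down to -1.22 at Ccnt2.

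P-TEFb, its 7SK regulators and the super elongation complex gave 7 of 13 matching genes, all above 0 at the TSS. There 4 (57.1%, all genes 71.2%) were higher (median 0.91, and 1.496 over 4 genes without shared ratios). Hexim2 had 0.323 in Carm1 KO and 0.0874 in control cells (1.89), Ell 2.18 in Carm1 KO and 0.667 in control cells (1.71), Hexim1 0.366 in Carm1 KO and 0.150 in control cells (1.28) and Aff4 0.102 in Carm1 KO and 0.0541 in control cells (0.91). Under 1.5-fold were Ccnt1, with 0.250 in Carm1 KO and 0.180 in control cells (0.47), Ccnt2, with 0.0533 in Carm1 KO and 0.0430 in control cells (0.31), and Larp7, with 0.168 in Carm1 KO and 0.151 in control cells (0.15). At the TES 4 (57.1%, all genes 66.7%) were higher and 1 (14.3%, all genes 7.13%) lower (median 0.79, and 1.38 over 5 genes without low ratios). Larp7, which binds the 7SK RNA, showed the largest TES change of all the machinery genes, with 10.4 in Carm1 KO and 2.41 in control cells (2.11). Ell, an elongation factor, had 4.15 in Carm1 KO and 1.52 in control cells (1.45), and Aff4, the scaffold of the super elongation complex, 14.1 in Carm1 KO and 5.43 in control cells (1.38). Hexim2, an inhibitor of P-TEFb, had 1.82 in Carm1 KO and 1.05 in control cells (0.79) and its paralogue Hexim1 1.37 in Carm1 KO and 1.03 in control cells (0.42).

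Both cyclin T genes were lower in ratio at the TES in Carm1 KO cells, though 1 of them passed 1.5-fold. Ccnt2 had 1.69 in Carm1 KO and 3.93 in control cells (-1.22), the lowest TES change of the 53, and neither of its ratios was shared with another gene. Ccnt1 had 1.53 in Carm1 KO and 2.09 in control cells (-0.45). The gene of the second elongation kinase, Cdk12, had 2.60 in Carm1 KO and 3.78 in control cells at the TES (-0.54), not called, beside 0.176 in Carm1 KO and 0.0719 in control cells at the TSS (1.29). Cdk9 and Cdk13 were not analysed here.

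Pausing and passage factors were 4 genes of 11. Nelfb, a subunit of the pausing factor NELF, was higher at both ends, with 0.348 in Carm1 KO and 0.0444 in control cells at the TSS (2.97), then 3.63 in Carm1 KO and 1.36 in control cells at the TES (1.42). Supt4a, the small subunit of DSIF, had 0.132 in Carm1 KO and 0.0802 in control cells at the TSS (0.72), then 1.99 in Carm1 KO and 1.31 in control cells at the TES (0.60). Supt16, of the histone chaperone FACT, was called higher at the TSS, with 1.11 in Carm1 KO and 0.317 in control cells (1.81), and not at the TES, with 3.75 in Carm1 KO and 3.98 in control cells (-0.09). Tcea1, the TFIIS gene whose product restarts stalled polymerase, was not called at either end, with 0.706 in Carm1 KO and 0.654 in control cells at the TSS (0.11), then 5.72 in Carm1 KO and 5.83 in control cells at the TES (-0.03).

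Factors that dephosphorylate the tail or assemble the enzyme were 3 genes of 9. Rpap1, which helps assemble the enzyme, had a TSS ratio of 0.0419 in Carm1 KO and 0.00242 in control cells (4.12), and Rpap2, a phosphatase of serine 5, 0.0746 in Carm1 KO and 0.00512 in control cells (3.87). The control ratios were the lowest above 0 among the 53 genes, so these large changes rest on the smallest denominators. The Carm1 KO ratio of Rpap1 was common to 7 genes and that of Rpap2 to 18, and the Rpap2 control ratio to 2. At the TES Rpap1 was higher, with 5.59 in Carm1 KO and 2.83 in control cells (0.98), and Rpap2 was not called, with 1.61 in Carm1 KO and 2.06 in control cells (-0.35). Ctdp1, the phosphatase that removes serine 2 phosphate, had 0.112 in Carm1 KO and 0.111 in control cells at the TSS (0.01) and was lower at the TES, with 6.38 in Carm1 KO and 9.81 in control cells (-0.62).

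The pattern of names also took in 7 genes of other machineries. Gtf2i, a signal-responsive factor, had 0.322 in Carm1 KO and 0.0663 in control cells at the TSS (2.28), then 11.3 in Carm1 KO and 6.39 in control cells at the TES (0.82). Its relative Gtf2ird2 had 0.168 in Carm1 KO and 0.111 in control cells (0.59), then 5.16 in Carm1 KO and 2.88 in control cells (0.84). Taf1d and Taf1b, of the Pol I selectivity factor, were higher at both ends, Taf1d by 1.38 (TSS) and 0.95 (TES) and Taf1b by 0.80 (TSS) and 0.79 (TES). Taf15, an RNA-binding protein gene, was not called at either end, with 0.138 in Carm1 KO and 0.0961 in control cells at its start (0.53) and 3.04 in Carm1 KO and 3.49 in control cells at its end (-0.20). Supt3 and Taf5l belong to SAGA-type coactivators. Supt3 was listed at 0 at the TSS in control cells against 0.103 in Carm1 KO cells, and had 7.61 in Carm1 KO and 3.08 in control cells at the TES (1.30). Taf5l was the reverse case at the TSS, at 0 in Carm1 KO and 0.0857 in control cells, with 6.38 in Carm1 KO and 6.96 in control cells at the TES (-0.13).

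Many start ratios were identical between genes. At the TSS 23 of 47 nonzero Carm1 KO ratios (48.9%, all genes 54.8%) and 25 of 52 control ratios (48.1%, all genes 39.3%) were exactly shared with another gene. Gtf2ird2, Larp7 and Taf7 had the same Carm1 KO ratio, common to 28 genes, and Ctdp1 and Gtf2e1 another, common to 17. At the TES sharing was rarer, with 11 of 53 Carm1 KO ratios and 13 of 53 control ratios. With shared values set aside, 12 of 19 genes were called higher at the TSS, and no share of all genes is given for that setting. How many reads lie behind a shared ratio is unknown.

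The level of the TES ratio followed gene length. Across the 53 genes Spearman's rho between length and TES ratio was 0.63 in Carm1 KO and 0.79 in control cells, beside 0.58 in Carm1 KO and 0.79 in control cells over all genes of the table. These are descriptions across genes that share libraries. Short genes lay low, such as Polr2k (3.001 kb), Hexim1 (3.50 kb), Taf7 (3.71 kb) and Ints5 (4.88 kb), and the longer Aff4 (71.0 kb), Gtf2i (76.9 kb) and Taf4b (117 kb) lay high in control cells. Larp7, at 16.6 kb, reached 10.4 in Carm1 KO cells, where Aff4 and Gtf2i, both of them longer, were the only ones of the 53 above it. Ell (53.4 kb) had 1.52 and Ints2 (46.9 kb) 1.73 in control cells, both below the shorter Gtf2b (18.6 kb) at 3.41. Start ratios gave weak values of rho, -0.14 in Carm1 KO and -0.10 in control cells.

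Over all genes, ordered in 10 classes by length, the TES change had a median of 0.96 in the 7 shorter classes and 0.26 in the longest 3. For the machinery genes it was 0.79 over 31 genes and 0.39 over 22. Of the 6 genes lower at the TES 3 were among the 31 shorter ones (9.68%, all genes 1.58%). The other 3 were among the 22 longer ones (13.6%, all genes 19.8%). Once the median of genes of like length was subtracted, 17 (32.1%) were at least 1.5-fold below it, against 16.4% of all genes, and 9 (17.0%) above it, against 13.1%. The lowest were Ccnt2 (-1.89), Taf8 (-1.85), Med6 (-1.61), Gtf2e1 (-1.49), Ints13 (-1.38) and Ccnt1 (-1.29), all between 18.9 and 33.9 kb long. The next were of more varied length: Taf4b (-0.973, 117 kb), Taf5l (-0.968, 25.1 kb) and Taf5 (-0.877, 15.7 kb). The highest were Supt3 (1.39), Ints2 (1.33), Taf2 (1.28), Ell (1.23), Aff4 (1.16) and Larp7 (1.12).

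**Figure D3:**
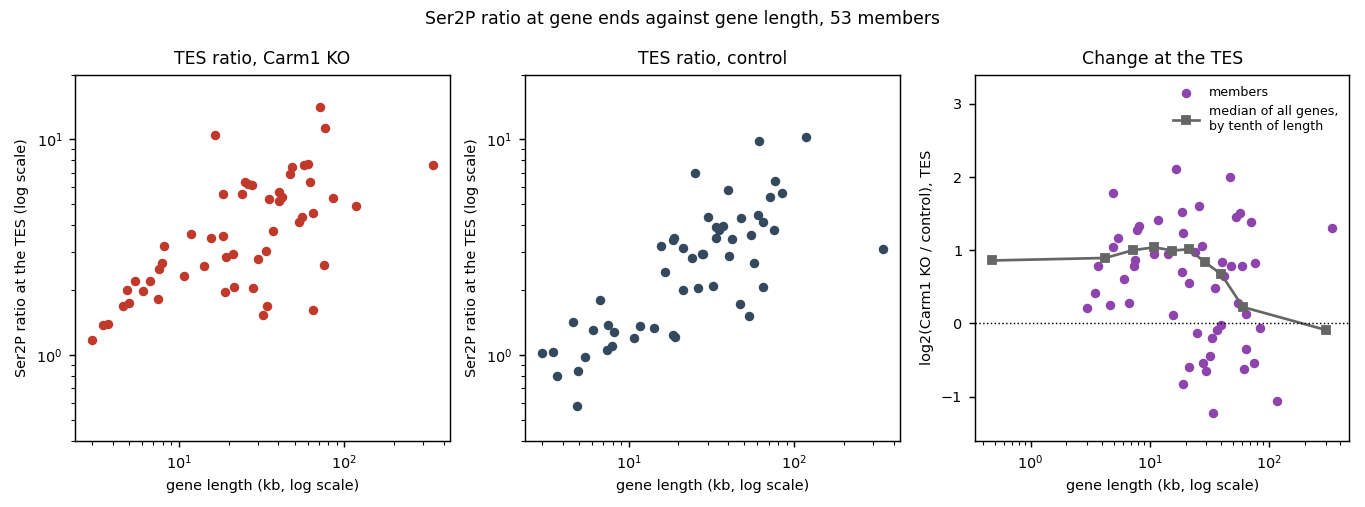
Ser2P ratio at the TES against gene length (both log axes) in Carm1 KO (left) and control cells (middle) for the 53 genes, and their TES change against length (right) with the median of all genes in each of 10 length classes as grey squares. The ratios climb with length in both conditions, with rho of 0.63 in Carm1 KO and 0.79 in control cells. On the right, the 6 genes furthest under the median of their length class are 18.9 to 33.9 kb long, out of 17 genes of wider length range at least 1.5-fold under it.

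Dividing the TES ratio by the TSS ratio of the same gene cancels any factor that applies to a library alike in both tables. For 46 genes this rise from start to end had a median of 18.3 in Carm1 KO and 35.7 in control cells, beside 15.7 in Carm1 KO and 19.5 in control cells over all 2775 comparable genes. The median log2 change was -0.48, close to -0.40 for all genes. The rise was at least 1.5-fold smaller in Carm1 KO cells for 22 (47.8%), against 44.2% of all genes, and larger for 5 (10.9%), against 19.8%.

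The largest reductions of this rise were at Rpap2, with 21.6 in Carm1 KO and 402 in control cells (-4.22), Ints8, with 6.38 in Carm1 KO and 99.3 in control cells (-3.96), and Rpap1, with 133 in Carm1 KO and 1169 in control cells (-3.13). Polr2h, Gtf2e1 and Polr2d followed at -2.69, -2.35 and -2.32. Apart from Ints8, each of these had a TSS ratio exactly shared with another gene in Carm1 KO cells, control cells or both. These 6 differ in what happened at the end, where Rpap1 and Polr2d were higher, Gtf2e1 lower and the other 3 not called. The 5 genes with a larger rise were Larp7, with 62.2 in Carm1 KO and 16.002 in control cells (1.96), Gtf2h1, with 34.9 in Carm1 KO and 14.8 in control cells (1.24), Ints5 (1.10), Med21 (0.93) and Gtf2h5 (0.74). Among them Larp7 and Gtf2h5 had shared Carm1 KO start ratios, common to 28 and 6 genes. Ints6 had the steepest profile in Carm1 KO cells, at 900.0 there and 936 in control cells. At the other extreme Taf10 had 0.909 in Carm1 KO and 1.01 in control cells, and Ints5 had 1.29 in Carm1 KO and 0.601 in control cells.

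**Figure D4:**
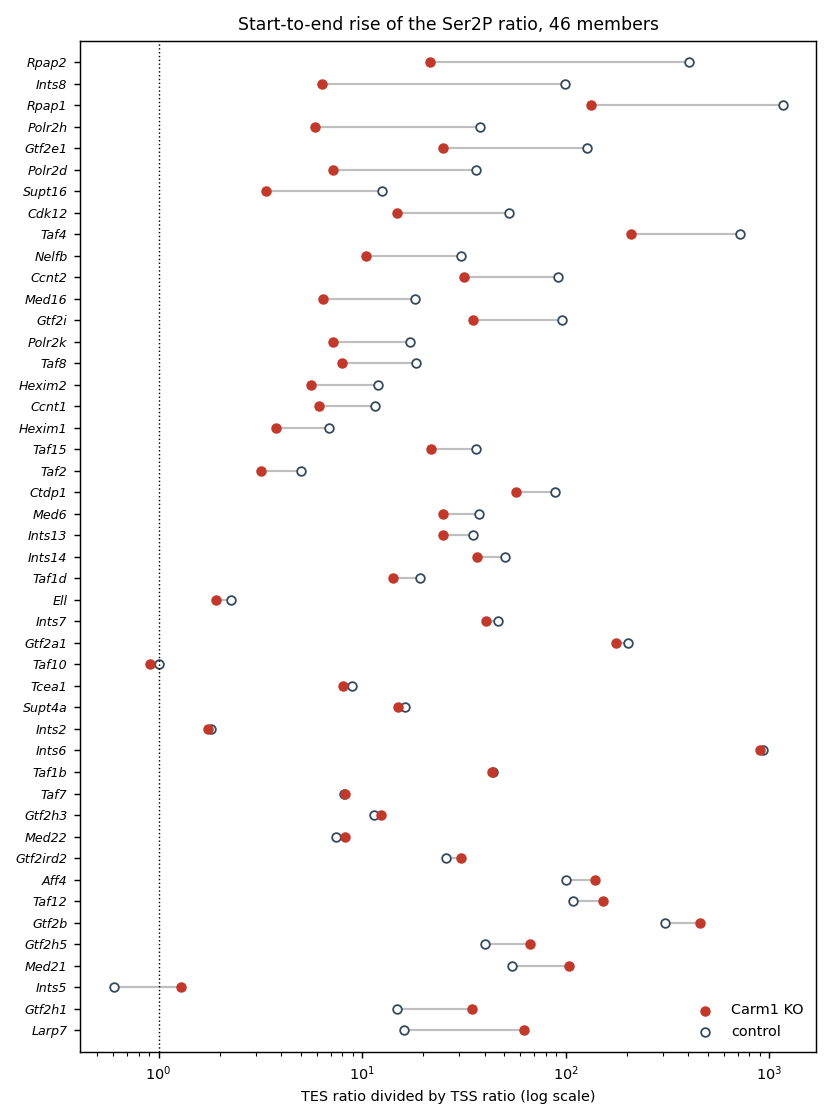
TES ratio divided by TSS ratio (log axis) in Carm1 KO (filled) and control cells (open) for the 46 genes above 0 throughout, ordered by the change, with a dotted line at 1. Carm1 KO points lie left of control points by over 1.5-fold for the top 22 genes and right of them for the bottom 5, from Gtf2h5 to Larp7.

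High start ratios sat partly beside neighbouring genes. In GENCODE M21 on GRCm38 6 of the 53 genes (11.3%, all annotated TSS genes 13.2%) start within 1 kb of the end of a different gene. These are Taf10 after Tpp1, Nelfb after Stpg3, Supt16 after Chd8, Ints5 after Lbhd1, and Med16 and Med22 beside small RNA genes. Their median TSS ratio was 0.757 in Carm1 KO and 0.224 in control cells, against 0.138 in Carm1 KO and 0.0663 in control cells for the other 47. Over all genes the same split gave 0.413 in Carm1 KO and 0.151 in control cells with such a neighbour, and 0.150 in Carm1 KO and 0.0772 in control cells without. The part of reads from such neighbours in these ratios was not tested. Ints2, Taf2, Ell and Tcea1 had TSS ratios of at least 0.535 in both conditions with no annotated gene end that close, although the starts of Ints2 and Tcea1 lie inside the annotated genes Brip1os and Gm37988.

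Genes of the same pathway outside the naming pattern were also mostly higher, as were genes in general. A list of 53 symbols was used, which held some older names of genes also listed or of the machinery genes above. Of its symbols 17 were in the TSS table, where 11 (64.7%, all genes 71.2%) were higher in Carm1 KO cells and 1 (5.88%, all genes 5.6%) lower (median 0.92). In the TES table were 16, of which 11 (68.8%, all genes 66.7%) were higher and 1 (6.25%, all genes 7.13%) lower (median 0.89). Cdk19, the paralogue of the Mediator kinase Cdk8, had 0.851 in Carm1 KO and 0.0582 in control cells at the TSS (3.87), then 5.995 in Carm1 KO and 9.05 in control cells at the TES (-0.59), called in opposite directions as Gtf2e1 was. Snapc2, of the small nuclear RNA activating complex, had 3.80 in Carm1 KO and 0.846 in control cells at the TSS (2.17). Eloc, an elongin subunit, ran the other way, with 0.0486 in Carm1 KO and 0.0921 in control cells at the TSS (-0.92), then 6.14 in Carm1 KO and 2.39 in control cells at the TES (1.36). Rnmt, the mRNA cap methyltransferase, was not called at its start, with 0.102 in Carm1 KO and 0.118 in control cells (-0.22), and was higher at its end, with 5.30 in Carm1 KO and 1.58 in control cells at the TES (1.74). Btaf1, a remover of TBP from DNA, had 0.0189 in Carm1 KO and 0.0261 in control cells at the TSS (-0.46), then 8.21 in Carm1 KO and 11.1 in control cells at the TES (-0.43), neither called.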

How the data were processed

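The authors deposited a table for the TSS and a table for the TES, with a linear Ser2P ratio per gene in Carm1 KO and control cells, named a fraction per the file headers although it exceeds 1. The sources used here do not give the divisor, window, strand setting, gene selection or scaling between libraries. Per the submitters' processing notes cutadapt 1.18 and TopHat2 2.1.1 were used with mm10 and GRCm38. Columns were assigned to Carm1 KO and control Ser2P libraries by name. From these, log2(Carm1 KO / control) was computed with no pseudocount for genes above 0 in both conditions, and genes were called at 1.5-fold (Python 3.11.15, pandas 2.3.3, numpy 2.4.6). With 1 library per group no test was run and no p-value is given. Depth is unknown, so no counting interval was computed.

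Lengths, starts and neighbours came from GENCODE M21, matched by symbol for 53 of 53 genes, and promoters from RefSeq. The length comparison subtracted the median change of all genes in the same of 10 length classes. Calculations were tested on simulated data. The genes, complexes, pathway list and alternatives were chosen with earlier results of these data known. Both ratios are given for the genes with the largest changes, the defining subunits and those at 0, and the pathway list by count with the 2 largest changes each way. Promoter motifs and neighbour distances were chosen after the data were seen.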

Additional observations from a re-analysis of the deposited data

How the results depend on the processing

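No paired analysis was possible because each group has 1 library, and for the same reason no library could be left out. Subtracting the median change of all genes turned the median of the machinery genes to -0.17 at the TSS, with 14 higher and 15 lower, and to -0.14 at the TES, with 7 higher and 19 lower. Subtracting the median of the same length class gave -0.18, with 13 higher (28.3%, all genes 28.7%) and 17 lower (37.0%, all genes 28.8%), at the TSS and -0.093, with 9 higher and 17 lower, at the TES. By construction such centring removes the rise common to all genes. Subtracting the median of all genes also turned the TSS medians of general factors and TFIID to -0.40, Mediator to -0.46, Integrator to -0.19 and the P-TEFb group to -0.26, and the TES medians of the DSIF, NELF, TFIIS and chaperone group to -0.56, general factors and TFIID to -0.33, Integrator to -0.069 and the P-TEFb group to -0.061. The medians of Mediator at the TES (0.21) and of the DSIF group at the TSS (0.097) stayed above 0. With a pseudocount of 0.01 the 6 genes at 0 in Carm1 KO cells counted as lower at the TSS (11.3%), against 9.06% of all genes at that setting, so that the lower share was then above and not below that of all genes. Without shared values 12 of 19 genes were higher at the TSS, since fewer were compared, and 1 was lower at the TES. The TSS median was then 1.91 for 3 general factor and TFIID genes and 1.496 for 4 genes of the P-TEFb group. At a 2-fold threshold 16 were higher and 2 lower at the TES. No shares of all genes are given at that threshold or without shared values, so these counts have no background. Leaving out low ratios put the TES median of the P-TEFb group at 1.38 over 5 genes. For the 53 genes as a whole, leaving out low ratios or the genes of other machineries moved no median by 1.5-fold and no count by over 1.5 times.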
